A study of Homo sapiens with 16 samples.

Results

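The genes described here are 69 ligands and receptors of axon guidance, taken from the 19077 genes of a count table by their symbols. They are 20 semaphorins with 9 plexins and 2 neuropilins, 8 ephrins with 14 Eph receptors, 3 Slits with 4 Robos, and 4 netrins with 5 netrin receptors (DCC and 4 UNC5 genes). Their mRNAs were counted in 16 libraries from HEK 293 cells, a transformed human embryonic kidney line, after precipitation of the RNA-induced silencing complex (RISC). In the RISC-trap method a dominant-negative fragment of GW182 keeps target mRNAs on Argonaute that carries a chosen miRNA, and the complex is then precipitated. Each group is named for its miRNA. There were 2 libraries of each of 6 miRNAs: mir550-3p, mir3613-5p, mir1301-3p, mir1271-5p, mir1260a-5p and mir1180-3p. Replicate 2 is the library whose title begins with the word Replicate. For mir124-3p there was 1 library titled Solid and 3 titled Illumina. All groups share the cell line and the trap, and the labels used here name no library without a miRNA, so a value is high or low only relative to the other pulldowns. No input RNA is analysed here, so recovery by RISC and the amount of the mRNA in the cells cannot be told apart.

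Axon guidance genes steer growing neurites by attraction and repulsion. Semaphorins act on plexins, with neuropilins as coreceptors for the secreted class. Ephrins are membrane-bound ligands of the Eph receptor tyrosine kinases, and Slits are secreted ligands that repel through Robo receptors. Netrins attract through DCC and repel through UNC5 receptors. Many of these genes are also used outside the nervous system, in blood vessels, kidney and other epithelia. A miRNA guides Argonaute mainly through its seed, bases 2 to 8 from the 5′ end, which pairs with a complementary site in an mRNA.

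The mature miRNAs that define the groups are shown because their seeds set which sites each pulldown can pair with. Capitals mark the seed, and sequences are from RefSeq with positions in GRCh38.p14. Of the 7 miRNAs, 6 were matched by name.
hsa-miR-1180-3p: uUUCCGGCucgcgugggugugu
hsa-miR-1260a: aUCCCACCucugccacca
hsa-miR-1271-5p: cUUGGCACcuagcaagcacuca
hsa-miR-1301-3p: uUGCAGCUgccugggagugacuuc
hsa-miR-3613-5p: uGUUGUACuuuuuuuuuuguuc
hsa-miR-550a-3p: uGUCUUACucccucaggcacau

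No pair of these 6 shared a seed (0 pairs). The DNA letters that pair with bases 2 to 8 are GCCGGAA for hsa-miR-1180-3p, GGTGGGA for hsa-miR-1260a, GTGCCAA for hsa-miR-1271-5p, AGCTGCA for hsa-miR-1301-3p, GTACAAC for hsa-miR-3613-5p and GTAAGAC for hsa-miR-550a-3p. The first 5 lie at chr17:19344513-19344534 on the minus strand, chr14:77266231-77266248 on the plus strand, chr5:176367960-176367981 on the plus strand, chr2:25328651-25328674 on the minus strand and chr13:49996465-49996486 on the minus strand. The mir550-3p libraries carry the text 550a in their descriptions. That mature sequence is encoded at chr7:32733041-32733062 on the plus strand and at chr7:29680748-29680769 on the minus strand. The RefSeq table lists hsa-miR-1260a without an arm, whereas the group is titled mir1260a-5p. For mir124-3p only the name is used here.

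Total counts per library lay between 7612758 and 26527365, and levels are given as CPM, counts scaled to the library total after correction by its trimmed-mean (TMM) factor. A gene with no count could have a level of up to 0.394 CPM in the shallowest library and up to 0.113 CPM in the deepest. These limits stand for 3 counts of the uncorrected total and cover counting error only. The 69 genes took between 0.0588% and 0.111% of the counts. Libraries of 1 miRNA differed by far more than counting error, with a chi-square per degree of freedom between 36.7 and 84.8. Nothing in the labels says that they came from separate cultures, so p-values measure only the spread between these libraries, which may be technical. In the 12 libraries of the 6 miRNAs, NEFL lay between 389 and 711 CPM, NEFM between 83.2 and 222 CPM and VIM between 406 and 1026 CPM. These are neurofilament and vimentin genes that HEK 293 cells are known to express. PAX2, a kidney transcription factor, lay between 1.31 and 6.74 CPM. The rest of the HEK 293 marker list was KRT8 (0.329 to 2.14 CPM), KRT18 (6.87 to 23.7 CPM), CDH2 (15.1 to 38.6 CPM) and LHX1 (16.6 to 84.3 CPM).

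All 69 genes passed the filter on low counts, so the counts below leave none out. A gene is called where edgeR's quasi-likelihood test gave an adjusted p under 0.05, with the Benjamini-Hochberg adjustment made over every gene in the fit. Each of the 6 miRNAs was compared with the average of the other 5. With mir1180-3p, 1 of the 69 genes was called, against 2.07% of all genes tested. With mir1271-5p, 2 of the 69 were called (2.9%), against 0.606% of all genes. With mir1301-3p, 9 of the 69 were called (13%), against 15.9% of all genes in either direction and 11.5% in the higher direction. The 9 are thus near the share of all genes that were called with mir1301-3p. All 12 of these calls were higher in the pulldown named. Over all genes, 339 calls were higher and 27 lower with mir1180-3p, 107 and 0 with mir1271-5p, and 2039 and 776 with mir1301-3p. No axon guidance gene was called with mir1260a-5p (0 of 69 in edgeR and 0 in DESeq2, against 0.215% and 0.408% of all genes), with 3 at an unadjusted p under 0.05 (5.33% of all genes). With mir3613-5p the count was likewise 0 in edgeR and 0 in DESeq2, against 0.0906% and 0.804% of all genes, with 11 genes at an unadjusted p under 0.05 (14.1% of all genes). With mir550-3p it was 0 in edgeR, against 1.51% of all genes, with 11 genes at an unadjusted p under 0.05 (16.4% of all genes) and 2 called by DESeq2 (4.98% of all genes). In the edgeR test for any difference among the 6 miRNAs, DCC, EFNB2 and EPHB6 were called, 3 of 69 (4.35%) against 5.72% of all genes. DESeq2 called 3 of the 69 with mir1180-3p (3.92% of all genes), 1 with mir1271-5p (0.923%), 10 with mir1301-3p (17.2%) and 19 in the test for any difference (19.1%).

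**Figure D1:**
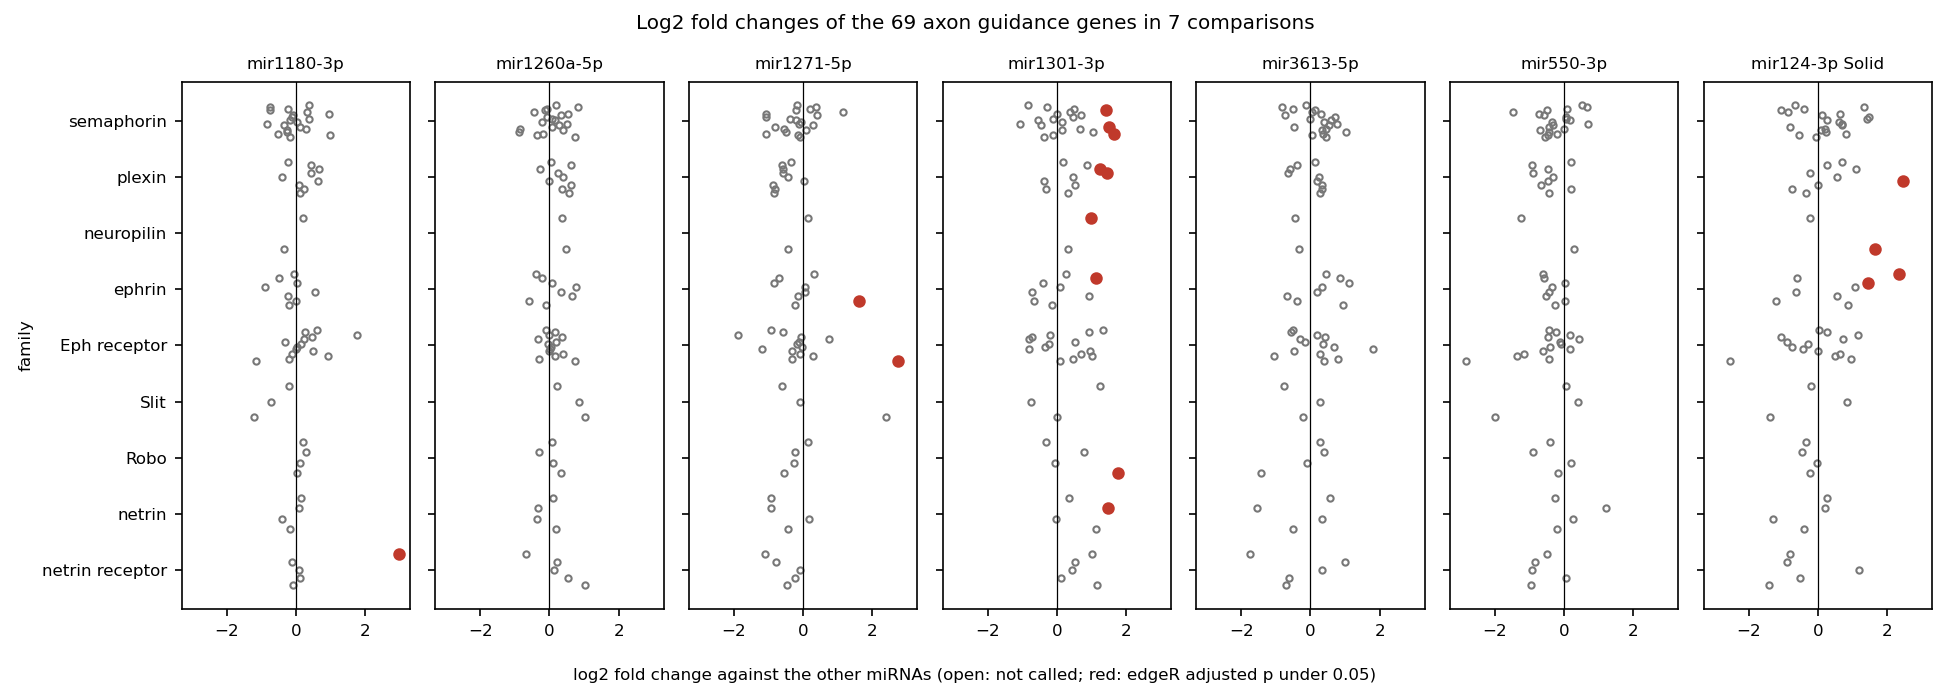
Log2 fold change of each of the 69 genes (x axis) by family (y axis), in 7 panels, 1 for each edgeR comparison; each circle is 1 gene, and filled red circles are called. The mir1180-3p panel holds 1 red circle (DCC), the mir1271-5p panel 2, the mir1301-3p panel 9 and the mir124-3p Solid panel 4, all to the right of 0.

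As a set, the 69 genes had median log2 fold changes on both sides of 0. The median log2 fold change of the 69 was 0.04 with mir1180-3p (all genes -0.07), 0.13 with mir1260a-5p (all genes 0.02) and 0.18 with mir3613-5p (all genes 0.01). It was 0.32 with mir1301-3p (all genes -0.02), -0.25 with mir1271-5p (all genes 0.05) and -0.40 with mir550-3p (all genes -0.05). Of the 69 genes, 48 lay below 0 with mir550-3p (69.6%, against 53.4% of all genes) and 51 with mir1271-5p (73.9% against 46%), whereas 45 lay above 0 with mir1301-3p (65.2% against 49.3%). With mir550-3p the median of the 69 stayed between -0.42 and -0.30 without any 1 library, and with mir1301-3p between 0.21 and 0.47. With mir1180-3p it changed sign, lying between -0.09 and 0.13. It lay between 0.01 and 0.20 with mir1260a-5p and between 0.03 and 0.27 with mir3613-5p. With mir1271-5p it was -0.17 without mir1271-5p replicate 1 and -0.64 without mir1271-5p replicate 2. The shift with mir1271-5p was thus mostly that of replicate 1, in which the median deviation from the mean over the 6 miRNAs was -0.59 on the log2 scale, against -0.06 in replicate 2. These medians and counts carry no test. Under upper-quartile scaling the median of all genes moved to 0.38 with mir1301-3p and to -0.19 with mir1271-5p, and that of the 69 genes to 0.73 and -0.48. With mir3613-5p that scaling moved the median of all genes to -0.18 and that of the 69 genes to 0.01. Of the 9 plexins, 8 were below 0 with mir1271-5p (median -0.58) and 7 with mir550-3p (median -0.47). With mir1301-3p 7 of the 9 were above 0 (median 0.48), as were 7 with mir1260a-5p (median 0.37), 7 with mir1180-3p (median 0.23) and 6 with mir3613-5p (median 0.18). Of all genes, 52.1% were above 0 with mir1260a-5p, 44.3% with mir1180-3p and 51% with mir3613-5p.

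**Figure D2:**
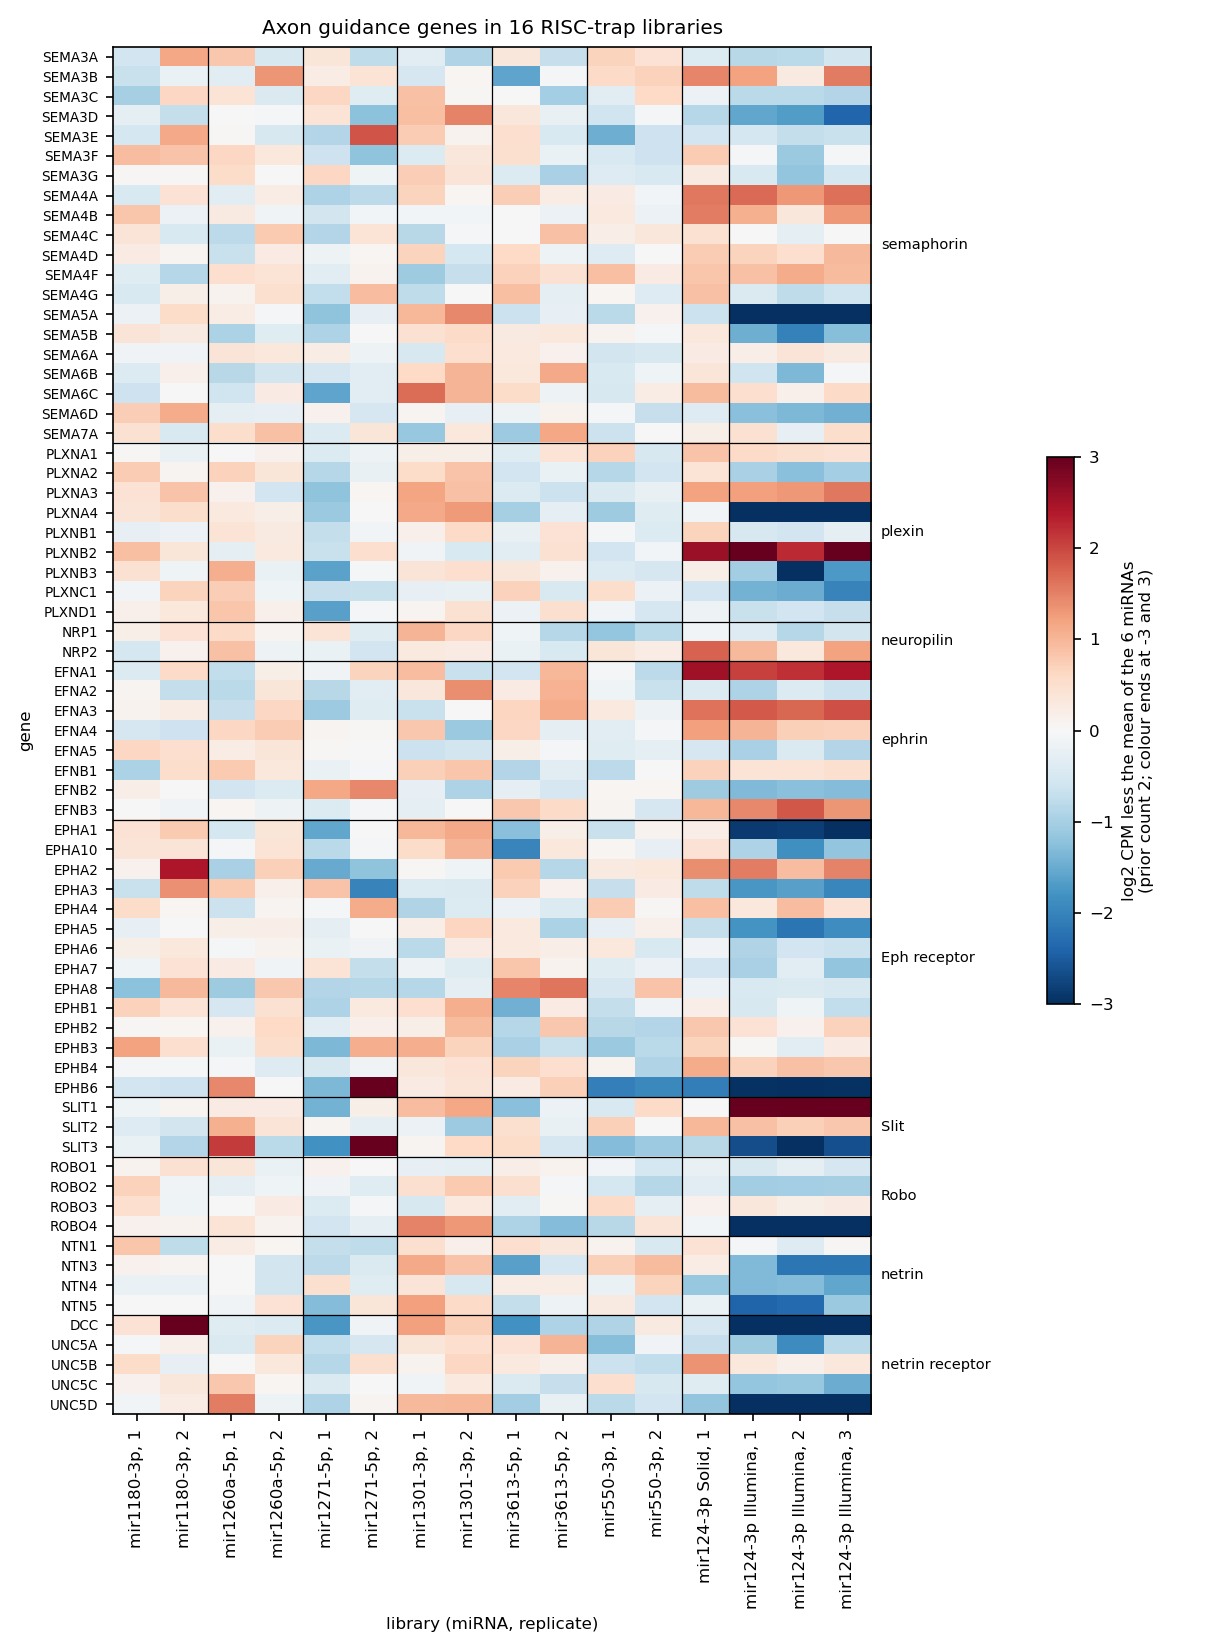
Log2 CPM (prior count 2) of the 69 genes (rows, by family) in the 16 libraries (columns), each less the gene's mean over the 6 miRNAs; red is higher and blue lower, and the colour ends at -3 and 3. Single dark red cells mark EPHB6 and SLIT3 in mir1271-5p replicate 2 and DCC in mir1180-3p replicate 2, and the 3 Illumina libraries hold many dark blue cells.

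Among the ephrins, EFNB2 was recovered more with mir1271-5p than with any other miRNA. EFNB2 is a transmembrane ephrin that binds EphB receptors and EPHB4 in particular, and it is known for its part in artery and vein identity. The 2 mir1271-5p libraries held 177 and 214 CPM. The other 10 libraries ranged from 41.7 to 91.2 CPM with a median of 65.3, so the groups did not overlap. The edgeR log2 fold change was 1.61 ± 0.24 (SE; 2 libraries against 10), with an adjusted p of 0.0020. EFNB2 was also called among the 6 miRNAs at large (edgeR adjusted p = 0.0083). Its call with mir1271-5p was lost only without mir1271-5p replicate 2, at a log2 fold change of 1.52 and an edgeR adjusted p of 0.0584. In that same pair of libraries EPHB4, its main receptor, lay at 17.7 and 23.0 CPM, inside its range over the other libraries.

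EPHB6, an Eph receptor without kinase activity, was also called with mir1271-5p, but on 1 library. It lay at 2.86 CPM in replicate 1 and at 85.3 CPM in replicate 2, while the other 10 libraries ranged from 1.70 to 20.9 CPM. The log2 fold change was 2.75 ± 0.56 (SE, edgeR adjusted p = 0.0315). Without replicate 2 it turned to -1.11 (adjusted p = 0.362), and the call was lost under 16 of 19 other settings, including without any 1 of the 10 libraries of the other miRNAs. In the test among the 6 miRNAs its edgeR adjusted p was 0.0438, and that call was lost under 13 of 17 settings. The mir550-3p libraries held the least EPHB6 of the 12, at 1.70 and 1.88 CPM, below all others (edgeR adjusted p = 0.104; log2 fold change -2.84), and DESeq2 called that decrease at -2.82.

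EFNA2, a ligand anchored to the membrane by a lipid that binds EphA receptors, was called with mir1301-3p. Its 2 libraries held 26.6 and 55.3 CPM, against a range of 11.7 to 43.0 CPM and a median of 17.9 in the other 10, so the groups overlapped. The log2 fold change was 1.13 ± 0.37 (SE, edgeR adjusted p = 0.0457), and the call was lost under 12 of 18 other settings. The pair of mir3613-5p libraries, at 24.8 and 43.0 CPM, lay beside those of mir1301-3p.

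With mir3613-5p the gene nearest to a call was EPHA8, an EphA receptor, at 14.8 and 16.4 CPM. The other 10 libraries ranged from 2.17 to 10.6 CPM with a median of 3.29. The groups did not overlap, yet the edgeR adjusted p was 0.195 at a log2 fold change of 1.80 ± 0.48 (SE). In all, 4 genes lay above all other libraries with mir3613-5p (2.08% of all genes did), and all 4 were ephrins or Eph receptors: EPHA8, EFNA3, EFNB3 and EPHB4. The last 3 were picked out after their values were seen, and none was called. EFNA3 held 35.4 and 48.8 CPM against at most 34.7 in the other 10. EFNB3 held 12.01 and 10.1 CPM, and EPHB4 39.3 and 35.2 CPM.

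Of the 8 ephrins, 1 was called with mir1271-5p (EFNB2) and 1 with mir1301-3p (EFNA2), both higher. Of the 14 Eph receptors, only EPHB6 was called by edgeR in any of the 6 comparisons. Their log2 fold changes ranged from -1.88 to 2.75 with mir1271-5p and from -2.84 to 0.44 with mir550-3p. With mir550-3p 3 of the 14 were above 0, against 46.6% of all genes. EPHA2 had the lowest log2 fold change of the 14 with mir1271-5p, at 1.09 and 1.39 CPM, below the other 10 libraries (1.67 to 18.9 CPM), and was not called (edgeR adjusted p = 0.399). In all, 4 of the 69 genes lay below the other 10 libraries with mir1271-5p (1.38% of all genes): EPHA2, PLXNC1, SEMA3F and SEMA4A. None was called, and the 4 were named after their values were seen. PLXNC1 was also the plexin with the highest mean level over the 12 libraries, at 11.6 CPM.

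**Figure D3:**
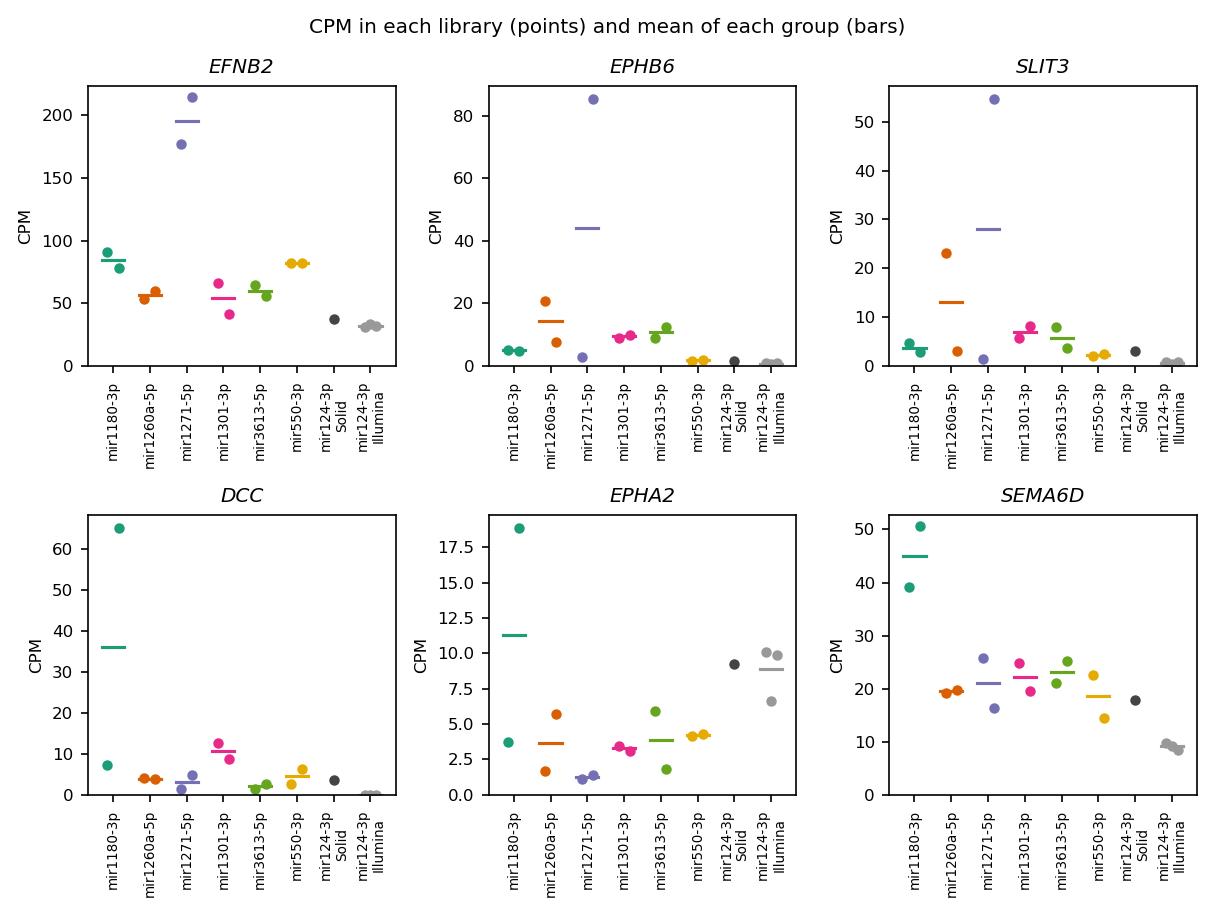
CPM (y axis, linear, a scale of its own in each panel) of EFNB2, EPHB6, SLIT3, DCC, EPHA2 and SEMA6D in the 16 libraries; points are libraries and bars are group means. Both mir1271-5p points of EFNB2 stand above all others, at 177 and 214 CPM, and both mir1180-3p points of SEMA6D, at 39.2 and 50.6 CPM, while in EPHB6, SLIT3, DCC and EPHA2 a single point lies far above its own partner.

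With mir1301-3p, 3 of 20 semaphorins, 2 of 9 plexins and 1 of 2 neuropilins were called, all higher. That is 6 of 31 genes (19.4%), where 11.5% of all genes were called higher, and nothing particular to these families is read from it. SEMA3D, a secreted semaphorin of the class that uses neuropilins, held 23.7 and 35.7 CPM with mir1301-3p. The other 10 libraries ranged from 5.31 to 16.8 CPM with a median of 11.5. Its log2 fold change was 1.43 ± 0.36 (SE, edgeR adjusted p = 0.0213).

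SEMA5A, a transmembrane semaphorin with thrombospondin repeats, held 9.74 and 13.3 CPM against 2.005 to 7.09 CPM (median 4.15). SEMA6C, another transmembrane semaphorin, held 14.6 and 9.27 CPM against 1.40 to 6.56 CPM (median 3.81). Neither overlapped the other pulldowns. Their log2 fold changes were 1.51 ± 0.38 and 1.64 ± 0.40 (SE), with edgeR adjusted p of 0.0201 and 0.0191.

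The plexins called were both of class A, the receptors that pair with neuropilins. PLXNA4 held 16.2 and 17.7 CPM against 3.28 to 10.6 CPM (median 6.58) in the other 10 libraries. PLXNA3 held 11.9 and 9.54 CPM against 2.13 to 9.45 CPM (median 4.08), so that the lower of its pair only just cleared mir1180-3p replicate 2. The log2 fold changes were 1.46 ± 0.35 for PLXNA4 and 1.25 ± 0.37 for PLXNA3 (SE), with edgeR adjusted p of 0.0175 and 0.0354. PLXNA3 lost its call under 6 of 18 other settings: without either mir1301-3p library, either mir550-3p library or mir1180-3p replicate 1, and against mir550-3p alone.

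NRP1, the coreceptor of secreted semaphorins and of VEGF, stood at opposite ends of its range in 2 pulldowns. The mir1301-3p libraries held 46.4 and 35.5 CPM, against a range of 10.05 to 33.9 CPM (median 22.5) in the other 10, and the log2 fold change was 0.99 ± 0.30 (SE, edgeR adjusted p = 0.0366). That call was lost under 7 of 18 other settings: without either library of mir1301-3p, mir1180-3p or mir550-3p, and without mir1260a-5p replicate 2. The mir550-3p libraries held 10.05 and 13.01 CPM, against 12.6 to 46.4 CPM (median 28.1), so the groups overlapped, and the log2 fold change was -1.26 at an edgeR adjusted p of 0.0839. The decrease was not called by edgeR, and DESeq2 called it at -1.22. These comparisons share libraries, since each group is part of the other's reference. Set directly against each other, the mir1301-3p and mir550-3p libraries differed in NRP1 by a log2 fold change of 1.87 (edgeR adjusted p = 0.0205).

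SEMA4F, a transmembrane semaphorin of class 4, had values toward the low end with mir1301-3p and was named after they were seen. It held 6.97 and 9.09 CPM against 8.10 to 27.9 CPM (median 18.7), so the groups overlapped, with a log2 fold change of -1.05 and an edgeR adjusted p of 0.0562, just outside the threshold. DESeq2 called it at -1.09. Against mir550-3p alone edgeR called it at -1.45. Under DESeq2's size factors in edgeR the mir1301-3p calls were 7 higher and 1 lower, the lower one being SEMA4F, in place of 9 higher and 0 lower.

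**Figure D4:**
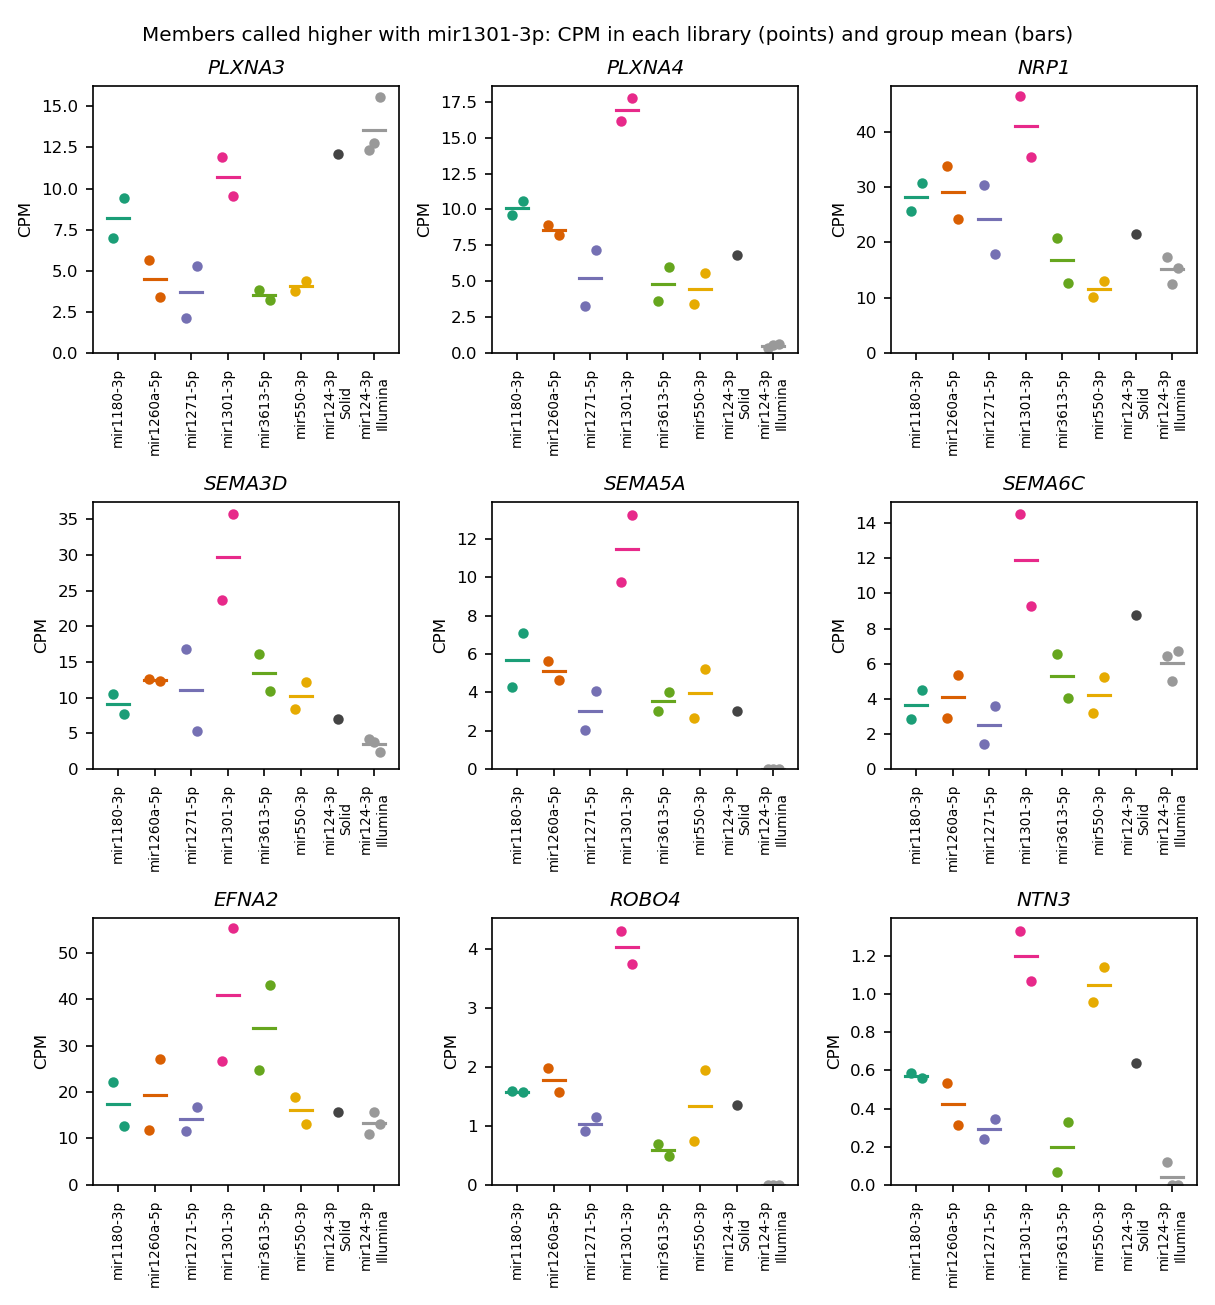
CPM (y axis, linear, a scale of its own in each panel) of the 9 genes called higher with mir1301-3p in the 16 libraries; points are libraries and bars are group means. In 7 of the 9 panels both mir1301-3p points lie above all points of the other 5 miRNAs; in EFNA2 and NTN3 they overlap, and SEMA5A and ROBO4 are at 0 in the 3 Illumina libraries.

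With mir1180-3p, SEMA6D stood apart without being called. It is a transmembrane semaphorin that binds class A plexins. Its libraries held 39.2 and 50.6 CPM, above the other 10 at 14.6 to 25.8 CPM (median 20.4), at a log2 fold change of 0.99 ± 0.29 (SE, edgeR adjusted p = 0.104). DESeq2, upper-quartile scaling and the fit without a filter called it. Along with SEMA6D, SEMA3F and EFNA5 were the genes above all other libraries with mir1180-3p, 3 of 69 against 3.68% of all genes. All 3 were named after their values were seen. SEMA3F, a secreted semaphorin that signals through NRP2, held 10.7 and 10.1 CPM with mir1180-3p and 3.52 and 2.31 CPM with mir1271-5p, and was called in neither. SEMA4C had the highest mean level of the semaphorins over the 12 libraries, at 26.3 CPM. It ranged from 13.1 to 44.9 CPM and was not called by edgeR in any comparison. Of the semaphorins, 14 of 20 were above 0 with mir3613-5p (51% of all genes) and 6 of 20 with mir1271-5p (54% of all genes).

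In the Slit and Robo families, ROBO4 was called with mir1301-3p. ROBO4 is a Robo receptor known mainly from endothelium. It held 4.30 and 3.74 CPM against 0.493 to 1.98 CPM (median 1.36), a log2 fold change of 1.77 ± 0.40 (SE, edgeR adjusted p = 0.0148), and the groups did not overlap. ROBO4 was never above 42 counts in the 12 libraries. Its lowest values were those of mir3613-5p, at 0.690 and 0.493 CPM.

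ROBO1, the receptor of Slits on many neurons, was the steadiest of the 69 genes across the 12 libraries. It ranged from 30.4 CPM in mir550-3p replicate 2 to 60.6 CPM in mir1180-3p replicate 2, a ratio of 1.996, with a mean of 44.6 ± 8.70 CPM (SD, 12 libraries). ROBO2 and ROBO3 were not called either.

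SLIT2, a secreted Slit that repels through ROBO1 and ROBO2, was the gene with the lowest p with mir1260a-5p. It held 46.0 and 28.8 CPM against 10.2 to 36.0 CPM (median 19.0), so the groups overlapped, and the edgeR adjusted p was 0.716. SLIT1 reached 7.79 and 9.09 CPM with mir1301-3p, above the other 10 libraries (1.40 to 6.03 CPM), and missed the threshold (log2 fold change 1.25, edgeR adjusted p = 0.054). SLIT3 varied most of the 3, and its high values were in single libraries: 54.6 CPM in mir1271-5p replicate 2 beside 1.40 CPM in its partner, and 23.1 CPM in mir1260a-5p replicate 1 beside 2.98 CPM in its partner. With mir1271-5p its edgeR adjusted p was 0.213. SLIT1 and SLIT3 were singled out after their values were seen.

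DCC, the receptor through which netrins attract, was the call with the largest fold change among the 6 miRNAs, and it rested on 1 library. In mir1180-3p replicate 2 it reached 65.0 CPM, while replicate 1 held 7.17 CPM. The other 10 libraries ranged from 1.38 to 12.6 CPM with a median of 3.98, so the pair of mir1180-3p libraries overlapped them. The log2 fold change was 2.99 ± 0.48 (SE, edgeR adjusted p = 0.0012), and among the 6 miRNAs the adjusted p was 0.0141. Without mir1180-3p replicate 2, which leaves 1 library in the group, the log2 fold change was 0.72.

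NTN3 was called with mir1301-3p, at 1.33 and 1.07 CPM against 0.069 to 1.14 CPM (median 0.44), with a log2 fold change of 1.48 ± 0.49 (SE, edgeR adjusted p = 0.0465). It is a secreted netrin, and its highest count in any of the 12 libraries was 17. The call was lost under 14 of 18 other settings. None of the 4 UNC5 receptors was called in the 6 comparisons. UNC5B ranged from 7.41 to 21.0 CPM in the 12 libraries, and NTN4, the netrin with the most counts, from 8.79 to 20.6 CPM.

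Of the 69 genes, 12 lay above all other libraries in both mir1301-3p libraries, against 13.5% of all genes. The 9 calls need both of its libraries. Leaving out mir1301-3p replicate 1 or replicate 2 leaves 1 library in the group, which weakens the test for every gene. The loss of the calls is therefore not read as particular to these genes. The log2 fold changes of the 9 genes stayed above 0 in every setting run. With mir550-3p alone as the reference, whose descriptions are styled like those of mir1301-3p, 3 genes were called: NRP1 and PLXNA4 higher and SEMA4F lower. The share of all genes called against that reference is not given here. Of the marker lists, those of fibroblast and endothelium were high in the mir1301-3p libraries, which are also the shallowest and the third shallowest of the 12. The summed level of 8 fibroblast markers was 58.3 and 157 CPM in them, against 13.1 to 27.4 CPM in the other 10, and that of 5 endothelial markers was 25.4 and 29.9 CPM, against 4.42 to 19.0 CPM. Of these markers, 6 of the 8 and 4 of the 5 lay above the other 10 libraries in both, and 0 of the 13 were at 0 in any of the 12. In the remaining lists, 1 of 9 neuron and glia markers, 1 of 7 blood markers and 0 of 8 HEK 293 markers lay above the other 10 in both. The part of these lists, or of depth, in the 9 calls was not tested. For the markers too, recovery by RISC and the amount of the mRNA in the cells cannot be told apart.

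Agreement between the 2 libraries of a miRNA was uneven over the 69 genes. As a description across genes, which share libraries and are not independent, the Pearson correlation between the pair, after each gene's mean over the 6 miRNAs was taken off, was 0.55 for mir1301-3p and 0.38 for mir550-3p. It was 0.20 for mir3613-5p, 0.03 for mir1180-3p, and below 0 for the mir1260a-5p pair (-0.26) and the mir1271-5p pair (-0.27). Replicates were over 2-fold apart in 23 of the 69 genes with mir1271-5p, 16 with mir3613-5p, 13 with mir1260a-5p, 9 with mir1180-3p, 7 with mir550-3p and 6 with mir1301-3p. Replicate 1 of mir1271-5p held the lowest of the 12 values in 22 genes, and replicate 2 of mir1301-3p the highest in 17.

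In 4 genes the highest of the 12 libraries was over 2 times the next one. These were DCC (5.16 times) and EPHA2 (3.18 times), both in mir1180-3p replicate 2, and EPHB6 (4.09 times) and SLIT3 (2.36 times), both in mir1271-5p replicate 2. EPHA2, an EphA receptor common in epithelial cells, held 18.9 CPM in that library and 3.75 CPM in its partner. By group means, mir1301-3p was the highest of the 6 miRNAs in 26 axon guidance genes, and in 5275 of all 17658 genes tested. The groups mir550-3p and mir1271-5p were the lowest in 21 and 20 axon guidance genes. The matching counts over all genes are not given for the lowest. These are counts of ranks and carry no test.

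Other genes of the pathway were read from a list of 65 cofactors, coreceptors and effectors, all of which were tested. With mir1180-3p, 2 were called higher and 0 lower (3.08% of the list, against 2.07% of all genes). DPYSL2, a collapsin response mediator that carries semaphorin signals to microtubules, held 105 and 129 CPM against 20.9 to 55.5 CPM (median 37.7), a log2 fold change of 1.58 ± 0.28 (SE, edgeR adjusted p = 0.0035). RGMB, a repulsive guidance molecule that binds neogenin, held 126 and 88.7 CPM against 28.5 to 66.1 CPM (log2 fold change 1.11, edgeR adjusted p = 0.0263). DPYSL2 lost its call without mir1180-3p replicate 2 only, and RGMB without either mir1180-3p library and under 3 more of the 19 settings.

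With mir1301-3p, 5 of the 65 were called by edgeR, all higher (7.69%, against 11.5% of all genes called higher and 15.9% in either direction). CHN1, a Rac regulator that acts below Eph receptors, held 76.9 and 65.3 CPM against 14.7 to 44.7 CPM, and SLITRK1, a neuronal transmembrane protein with Slit-like repeats, held 15.4 and 11.9 CPM against 2.31 to 10.6 CPM. The other 3 were CHL1, a cell adhesion molecule, FLRT1, a membrane protein with leucine-rich repeats, and PAK3, a kinase activated by Rac and CDC42. The 5 log2 fold changes lay between 1.18 and 1.53, and all 5 calls were lost without either mir1301-3p library. CHL1 lost its call under 11 of 18 settings and PAK3 under 7, in both cases also without either mir1180-3p or either mir550-3p library. None of the list was called with mir1260a-5p, mir1271-5p, mir3613-5p or mir550-3p (0 of 65 each in edgeR). At an unadjusted p under 0.05 edgeR gave 4, 8, 13 and 9 of the 65 in that order, where the shares of all genes were 5.33%, 9.34%, 14.1% and 16.4%. DESeq2 called 0, 1, 0 and 2, where it called 0.408%, 0.923%, 0.804% and 4.98% of all genes. In the edgeR test among the 6 miRNAs, DPYSL2 and SLITRK1 were called (3.08% of the list, against 5.72% of all genes). DESeq2 called 12 of the list in that test (19.1% of all genes), 11 with mir1301-3p (17.2%) and 2 with mir1180-3p (3.92%). The 11 included RHOA, which edgeR did not call. It held 110 and 119 CPM with mir1301-3p and at least 137 CPM in each library of the other 5 miRNAs.

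For mir124-3p, the single Solid library was compared with the average of the 6 other miRNAs, on the assumption that it varies as much as they do. Of the 69 genes, 4 were called (5.8%), all higher, against 8.89% of all genes in either direction and 7.31% higher. DESeq2 called 7 (14.8% of all genes). The 4 called by edgeR were a plexin (PLXNB2), a neuropilin (NRP2) and a pair of ephrins (EFNA1 and EFNA3). PLXNB2, a plexin that binds class 4 semaphorins, held 32.9 CPM in the Solid library, while the 12 others ranged from 3.28 to 10.01 CPM with a median of 4.97. The log2 fold change was 2.47 ± 0.43 (SE, edgeR adjusted p = 0.0017), and the 3 Illumina libraries held 48.8, 25.8 and 43.2 CPM.

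EFNA1, a lipid-anchored ligand of EPHA2 and other EphA receptors, held 41.3 CPM against 4.02 to 14.1 CPM (median 6.61). Its log2 fold change was 2.34 ± 0.51 (SE, edgeR adjusted p = 0.0081), and the Illumina libraries held 29.7, 32.4 and 38.0 CPM. EFNA3, of the same class, held 69.4 CPM against 10.6 to 48.8 CPM (median 23.2), and 80.4, 75.0 and 86.2 CPM in the Illumina libraries. Its log2 fold change was 1.45 ± 0.42 (SE, edgeR adjusted p = 0.0391). All 4 mir124-3p libraries thus held more EFNA1, EFNA3 and PLXNB2 than any of the 12.

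NRP2, the neuropilin that binds SEMA3F, held 19.7 CPM in the Solid library against 3.70 to 10.4 CPM (median 5.60), a log2 fold change of 1.66 ± 0.45 (SE, edgeR adjusted p = 0.0265). Its Illumina libraries held 11.2, 7.02 and 13.2 CPM, and replicate 2 fell inside the range of the 12. The calls of PLXNB2 and EFNA1 were kept under all 16 alternative settings run. EFNA3 lost its call under upper-quartile scaling and without mir3613-5p replicate 1 or mir550-3p replicate 2, and NRP2 under upper-quartile scaling. Under that scaling the calls were 2 higher and 1 lower, the lower one being EFNB2 at -1.39, in place of 4 higher and 0 lower.

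EFNB2 was thus at the other end in mir124-3p. The Solid library held 37.3 CPM and the Illumina libraries 31.2, 33.1 and 31.9 CPM, all under the lowest of the 12 (41.7 CPM). The log2 fold change of the Solid library was -1.21 ± 0.40 (SE), not called at an edgeR adjusted p of 0.0701 and called by DESeq2.

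**Figure D5:**
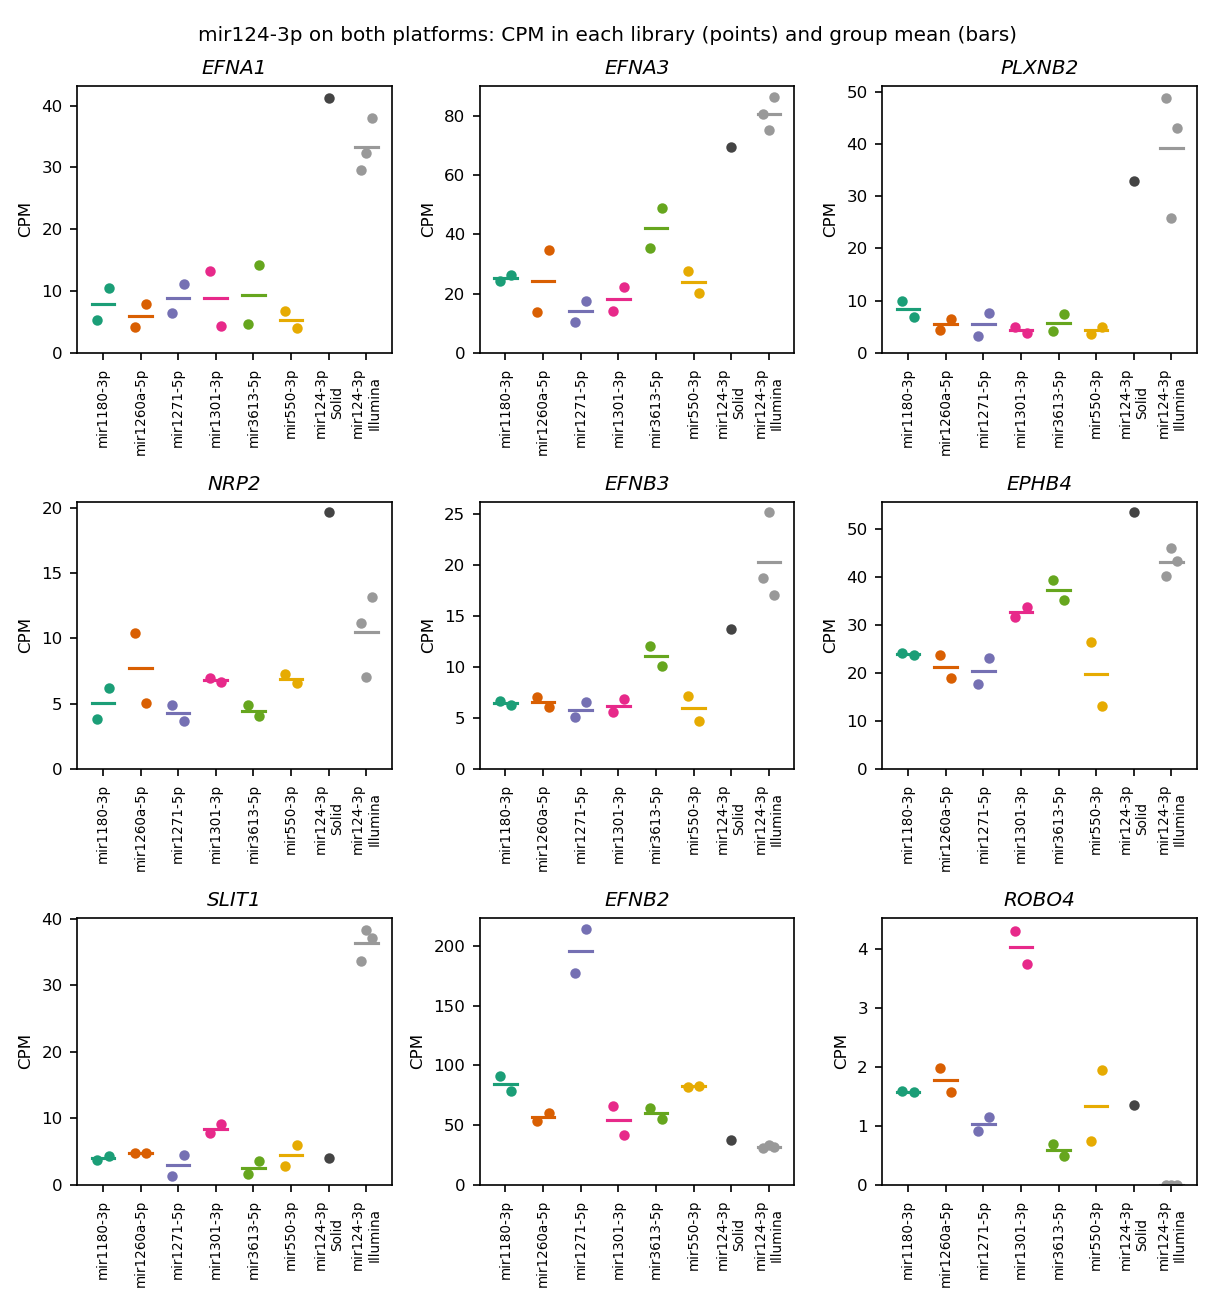
CPM (y axis, linear, a scale of its own in each panel) of 9 genes in the 16 libraries; points are libraries and bars are group means. The 4 mir124-3p points of EFNA1, EFNA3, PLXNB2, EFNB3 and EPHB4 lie above those of the 6 other miRNAs and those of EFNB2 below, SLIT1 is high in the Illumina libraries (33.6 to 38.2 CPM) and not in the Solid one (3.98 CPM), and ROBO4 is at 0 in all 3 Illumina libraries.

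The Illumina libraries were not tested, because platform and miRNA cannot be told apart in them beyond the single Solid library. In the Solid library 15 of the 69 genes lay above all 12 others and 4 below, against 21% and 11% of all genes. In 7 genes the Solid and all 3 Illumina libraries lay above the 12 (10.7% of all genes did): EFNA1, EFNA3, EFNB3, EPHB4, PLXNA3, PLXNB2 and SEMA4A. In 4 genes they all lay below (8.13% of all genes): EFNB2, EPHB6, NTN4 and UNC5D. These lists follow from the order of the values, and outside the 4 calls their genes were named after the values were seen.

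On their own, the Illumina libraries put 8 of the 69 genes above the 12 (13.6% of all genes) and 18 below (31.2% of all genes). ROBO4, SEMA5A and UNC5D had a count of 0 in all 3, which allows a level of up to 0.154, 0.147 and 0.113 CPM in replicates 1, 2 and 3, whereas the Solid library held 1.35, 3.03 and 1.75 CPM. In all, 11 genes were under 1 CPM in the 3 Illumina libraries, and in the Solid library 1 gene was, NTN3. DCC was among the 11, at 3.66 CPM in the Solid library and at most 0.0461 CPM in the Illumina ones. SLIT1 went the other way, at 33.6, 38.2 and 37.1 CPM in the Illumina libraries and 3.98 CPM in the Solid one. The summed level of the 5 endothelial markers was between 0.12 and 0.319 CPM in the Illumina libraries and 7.88 CPM in the Solid one, and CDH5 and TEK of that list were at 0 in all 3. Other lists were lower there too: the 8 fibroblast markers summed to 2.49 to 4.24 CPM against 12.7 CPM in the Solid library. The 7 blood markers summed to 2.64 to 3.68 CPM against 5.81 CPM, and 9 neuron and glia markers to 60.5 to 64.6 CPM against 92.0 CPM. The sum of the 8 HEK 293 markers lay on both sides of the Solid library, at 1340 to 1756 CPM against 1380 CPM. Single markers of that list went both ways. KRT18 held 77.3 to 89.0 CPM against 28.2 CPM in the Solid library, and KRT8 5.30 to 7.73 CPM against 3.18 CPM. PAX2 held 0.894 to 1.34 CPM against 3.98 CPM. The part of these lists in the differences was not tested.

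Of the 65 other pathway genes, 5 were called higher and 2 lower by edgeR in the mir124-3p Solid library (10.8% of the list, against 8.89% of all genes). DESeq2 called 9 of the 65 (14.8% of all genes). FYN, a Src-family kinase that acts below DCC, plexins and Eph receptors, held 510 CPM against 69.9 to 148 CPM (median 101.4), a log2 fold change of 2.21 ± 0.30 (SE, edgeR adjusted p = 0.0002). Its Illumina libraries held 430, 256 and 493 CPM. Also higher were ABL1, a tyrosine kinase, LIMK2, which phosphorylates cofilin, and CFL1, cofilin itself.

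CFL1 held 257 CPM against 68.1 to 137 CPM. The genes called lower were RASA1, a Ras inhibitor bound by Eph receptors, and ROCK1, a kinase that acts on the actin cytoskeleton. RASA1 held 21.7 CPM against 54.3 to 125 CPM (log2 fold change -2.09, edgeR adjusted p = 0.0151), and its Illumina libraries held 23.0, 23.8 and 19.0 CPM. ROCK1 held 38.4 CPM against 76.8 to 186 CPM (log2 fold change -1.64, edgeR adjusted p = 0.0446), with 49.0, 76.6 and 41.5 CPM in the Illumina libraries. ROCK1 lost its call without any 1 of 6 libraries, those of mir1180-3p, mir3613-5p and mir550-3p. LIMK2 lost its call under 6 of 16 settings, which were upper-quartile scaling and leaving out mir1260a-5p replicate 2, mir1271-5p replicate 1, mir1301-3p replicate 1, mir3613-5p replicate 1 or mir550-3p replicate 2. ABL1 lost its call under upper-quartile scaling and CFL1 without mir550-3p replicate 2.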

How the data were processed

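The authors deposited 1 table of raw counts, not normalized, in which each row pairs a RefSeq mRNA with a gene symbol and each of the 16 libraries has a column. TopHat2 and the build hg19 are named per the submitters' processing notes. The counting tool, strand setting and annotation were not given in the sources used here, so overlapping antisense genes and close paralogs may share reads. For the 12 libraries other than mir124-3p the sequencer was not given in the sources used here.

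Counts were fitted in R 4.3.3 with edgeR 4.0.16 (filterByExpr, trimmed mean of M values, robust quasi-likelihood F test, two-sided), with 17658 genes tested over 12 libraries and 18135 over 13. DESeq2 1.42.0 was an alternative. edgeR's common biological coefficient of variation was 0.350 (12 libraries). Adjusted p-values are Benjamini-Hochberg over all genes tested, and all are from edgeR unless DESeq2 is named. Log2 fold changes carry standard errors of the fitted contrast. CPM of single libraries are scaled over all 16. Replicate numbers of the 6 miRNAs follow the titles and their order. The steps were tested on simulated data.

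Members were the symbols of the 9 families. Genes were named where called, where they had the most counts of their family, where they had the lowest p of a comparison without calls, or where called from the pathway list; others were named after their values were seen. Members and lists were chosen with earlier results of these data known. Alternatives were another scaling, no filter, DESeq2, the replicate number as a block, other references and leaving out each library in turn. Of the pathway list, 1 called gene is not reported here.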

Additional observations from a re-analysis of the deposited data

Results flagged for a closer look

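Values in the mir124-3p Illumina libraries, which no test used, lay above all 13 other libraries in 4 of the axon guidance genes. The lowest of the 3 Illumina libraries held 33.6 CPM of SLIT1, where the highest of the other 13 held 9.09 CPM. For EFNB3 it held 17.0 CPM against 13.7, for EFNA3 75.0 CPM against 69.4, and for PLXNA3 12.3 CPM against 12.1. In EFNB3, EFNA3 and PLXNA3 the highest of the other 13 was the Solid library of the same miRNA, and in SLIT1 it was mir1301-3p replicate 2. No group of the series has 4 to 10 libraries, so single libraries could not be tested as outliers within a group.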

How the results depend on the processing

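Of the 69 genes, the number called moved by over 1.5 times under these alternatives. Upper-quartile scaling gave 2 with mir1180-3p, 1 with mir1271-5p, 19 with mir1301-3p and 7 for any difference among the 6 miRNAs. With mir1301-3p that scaling also shifted the whole set of tested genes upward, from a log2 median of -0.02 to 0.38. No filter on low counts gave 2 with mir1180-3p and 1 with mir1271-5p. DESeq2 gave 3 with mir1180-3p, 1 with mir1271-5p, 2 with mir550-3p, 19 for any difference and 7 with mir124-3p Solid. A reference of libraries with like-styled descriptions gave 1 with mir1271-5p, 3 with mir1301-3p and 3 with mir550-3p. Leaving out each library in turn gave 0 to 2 calls with mir1180-3p, 0 to 3 with mir1271-5p, 0 to 14 with mir1301-3p, 0 to 1 with mir550-3p, 1 to 5 for any difference and 3 to 5 with mir124-3p Solid; with mir1260a-5p and mir3613-5p it gave 0 throughout. EPHB6 with mir1271-5p ranged from -1.11, a reversal, without mir1271-5p replicate 2 to 3.71 without replicate 1. The cause of these moves was not tested. With the replicate number as a block, 1 gene was called with mir1180-3p, 1 with mir1271-5p, 11 with mir1301-3p, 2 for any difference and 0 elsewhere. Apart from DESeq2, the shares of all genes called under these settings are not given here. The counts are therefore not read as particular to the 69 genes. For each miRNA the log2 level of replicate 2 was taken from that of replicate 1, gene by gene. Between 2 miRNAs these differences correlated between -0.14 and 0.36 over 15 pairs, with a median of 0.03 and 6 over 0.1. These values do not settle whether the numbers pair the libraries. No paired analysis was possible for mir124-3p because its Solid group has 1 library. Depth limits ROBO4, with at most 42 counts in the 12 libraries, and NTN3, with at most 17.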
